A study of Mus musculus with 6 samples.

Results

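Tubulin isotype transcripts were examined in C2C12 cells, an immortalized mouse muscle precursor line that divides in rich medium and can be made to form myotubes in culture. The group holds 10 genes by symbol, 5 for alpha tubulins (Tuba1a, Tuba1b, Tuba1c, Tuba4a and Tuba8) and 5 for beta tubulins (Tubb2a, Tubb2b, Tubb3, Tubb5 and Tubb6). Of the 45037 probe sets tested, 14 were annotated to 1 of these genes alone, and they cover 8 of the 10 genes out of 18193 genes with a probe set of their own. Another 5 probe sets were annotated to a member together with a pseudogene, and Tuba1b and Tuba1c were measured on such shared probe sets alone. Proliferating cells in 20% serum were compared with cells on day 6 in 2% horse serum, with 3 RNA samples and 3 arrays in each group and no genetic change or drug in either. Each RNA sample combined 3 pools of 3 culture plates, so that the arrays of a group differ as pools do, which may be less than single cultures differ. On day 6 the cultures held mononucleated cells as well as myotubes, by the study's methods.

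Microtubules are polymers of alpha and beta tubulin heterodimers, and vertebrates carry several genes for each subunit, the isotypes, which differ mostly in their C-terminal tails. These tails project from the microtubule surface, where they carry post-translational modifications and are bound by motors and microtubule-associated proteins. In muscle cells that differentiate, microtubules are rearranged from an array that radiates from the centrosome into bundles parallel to the long axis of the myotube, nucleated in large part from the surface of the nuclei.

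Day 6 cultures expressed the muscle program. All 6 muscle markers (Myog, Acta1, Ckm, Des, Mymk and Tnnt3) were higher than in proliferating cells, with a summed signal of 4478 to 5555 on the proliferating arrays and 53381 to 56431 on the differentiated arrays. All 4 measured proliferation markers (Mki67, Top2a, Ccna2 and Birc5) were lower, with a summed signal of 9177 to 9744 against 872 to 896. None of 4 adipocyte markers, 4 osteoblast or chondrocyte markers and 4 reserve cell markers passed limma's test in either direction. Of these, 2, 4 and 3 were above background on any array, so that a change of the remaining markers could not be seen. At an unadjusted p under 0.05 the counts higher were 0, 1 and 1, and the regularized test of the study's methods called 0 in each list. Signals are given in the units of the array software, in which the trimmed mean of each array is about 250, and a signal at or under the brightest of 27 bacterial control probe sets of its array (51.9 to 87.0) was read as background.

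Beta tubulin transcripts divided into those that fell and those that rose, while the alpha tubulins with probe sets of their own changed by less. By the brightest probe set of each gene, Tubb5, Tubb3 and Tuba1a fell on differentiation, Tubb6, Tubb2a and Tubb2b rose, and Tuba4a and Tuba8 did not pass the test. The call rule was limma's test on log2(signal + 15) with p-values adjusted by Benjamini-Hochberg over all 45037 probe sets and a threshold of 0.05. On this scale, changes of dim probe sets are understated. Of the 8 member genes, 3 were called higher, where 8.63% of all genes were, and 3 were called lower, where 9.00% of all genes were. Of the 14 probe sets of their own, 4 were called higher (6.14% of all probe sets), 4 were called lower (6.43% of all probe sets) and 6 did not pass. The median log2 fold change of the 8 genes was -0.078, against 0.057 over all genes. In a culture measured as a whole, fewer cells of a type and less RNA per cell cannot be told apart.

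The sequences before the starts of members that moved in opposite directions are given first. For 8 of the 10 members a promoter sequence was found in RefSeq (build GRCm38.p6). The sequences used held none for Tubb6 and Tubb2b, so that Tubb2a is the only one of the 3 genes called higher with a window. The 250 bases before the gene start are shown 5′ to 3′ on the gene's strand. Shown are both beta isotypes that fell, Tubb2a, which rose, and the alpha pair Tuba1a, which fell, and Tuba4a. Capitals mark matches on either strand to CCAAT, to the GC box GGGCGG, to the TATA box TATAAA, to the E-box CAGCTG bound by myogenic factors, and to TTTGAA, the cell cycle homology region of many mitotic genes. The windows are chr17:35838302-35838551 (minus strand) for Tubb5, chr8:123411303-123411552 (plus strand) for Tubb3, chr13:34078009-34078258 (minus strand) for Tubb2a, chr15:98953502-98953751 (minus strand) for Tuba1a and chr1:75219295-75219544 (minus strand) for Tuba4a, whose start as used here lies inside the annotated gene.
Tubb5: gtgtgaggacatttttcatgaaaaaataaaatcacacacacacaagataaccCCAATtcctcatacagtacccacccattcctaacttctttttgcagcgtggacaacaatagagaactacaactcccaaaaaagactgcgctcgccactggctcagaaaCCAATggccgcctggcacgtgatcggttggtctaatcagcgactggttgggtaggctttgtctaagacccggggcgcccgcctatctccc
Tubb3: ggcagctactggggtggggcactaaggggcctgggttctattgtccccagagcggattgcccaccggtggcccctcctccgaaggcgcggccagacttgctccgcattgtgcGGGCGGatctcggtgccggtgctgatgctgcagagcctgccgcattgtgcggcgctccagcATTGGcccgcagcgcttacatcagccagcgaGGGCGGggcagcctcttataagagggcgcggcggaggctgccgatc
Tubb2a: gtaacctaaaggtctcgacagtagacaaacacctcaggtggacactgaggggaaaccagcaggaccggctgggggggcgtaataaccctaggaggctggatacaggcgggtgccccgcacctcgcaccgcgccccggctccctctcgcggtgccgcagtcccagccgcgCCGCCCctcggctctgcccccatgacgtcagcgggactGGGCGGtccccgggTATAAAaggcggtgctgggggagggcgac
Tuba1a: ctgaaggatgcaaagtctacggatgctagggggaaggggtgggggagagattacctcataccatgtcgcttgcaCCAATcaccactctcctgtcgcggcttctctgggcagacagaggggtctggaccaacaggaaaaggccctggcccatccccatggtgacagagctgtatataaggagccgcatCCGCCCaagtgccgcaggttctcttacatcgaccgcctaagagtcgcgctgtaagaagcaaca
Tuba4a: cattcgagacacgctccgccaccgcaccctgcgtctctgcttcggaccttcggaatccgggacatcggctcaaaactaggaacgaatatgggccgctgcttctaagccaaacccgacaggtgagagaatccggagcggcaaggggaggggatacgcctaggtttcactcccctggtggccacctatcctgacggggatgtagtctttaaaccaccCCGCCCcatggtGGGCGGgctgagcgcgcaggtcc
CCAAT, the box bound by NF-Y, was found 2 times before Tubb5, at 198 and 90 bases before the start, and 1 time each before Tubb3, Tuba1a and Tuba1c. It was not found in the windows of Tubb2a, Tuba4a, Tuba1b and Tuba8. The same letters were in 33.8% of 32851 promoter windows of this length. TATAAA was found in the Tubb2a window alone among the 8, 29 bases before the start, and in 12.4% of all windows. GGGCGG was found 2 times each before Tubb2a, Tubb3, Tuba4a and Tuba1b, 1 time before Tuba1a and not before Tubb5, against 32.7% of all windows. CAGCTG was found before Tuba1b alone (13% of all windows), and TTTGAA before none of the 8 (16% of all windows). The Tubb5 window had a GC content of 49.2%, and those of Tubb3 and Tubb2a had 68% and 68.4%, around a median of 52.4% over all windows. No factor's binding was measured, and these matches describe the letters of the windows only.

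Tubb5, the class I beta tubulin that most dividing cells use, fell more than 2-fold on both of its probe sets. The brighter one (1416256_a_at) gave 15035, 15685 and 16201 for proliferating cells and 6254, 6062 and 6467 for differentiated cells. The other (1455719_at) went from 3964, 4335 and 4085 to 1037, 996.7 and 947.2. In each case the differentiated arrays lay far under the proliferating ones and within a narrow range. The brighter probe set fell from 15640 ± 584 to 6261 ± 203 (SD, n = 3 each), or -1.32 ± 0.10 (standard error) as a log2 fold change (2.49-fold, adjusted p = 1.4e-06). The other fell by more, with a log2 fold change of -2.04 ± 0.09 (standard error; 4.11-fold, adjusted p = 1.31e-08). Both probe sets are annotated to Tubb5 alone, and their log2 fold changes differed by 0.72 (exact permutation test, p = 0.1, the smallest that 3 against 3 arrays allow), so that the size of the fall depends on the probe set.

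Tubb3, the class III beta tubulin best known as a marker of neurons, had the largest fall by the brightest probe set among the 8 genes. Its single probe set (1415978_at) gave signals of 390.2, 382.4 and 324.5 in proliferating cells and of 48.1, 98.7 and 138.6 in differentiated cells. All 3 differentiated arrays were under every proliferating one, and 1 of them was at background. The mean went from 366 ± 35.9 to 95.1 ± 45.4 (SD, n = 3 each), or -1.88 ± 0.29 (standard error) as a log2 fold change (95% confidence interval -2.52 to -1.24, adjusted p = 0.000736). Among 7 other neuron markers, Nefl and Nefm, the light and medium chains of neurofilaments, fell as well, with log2 fold changes of -2.73 (adjusted p = 3.02e-08) and -1.47 (adjusted p = 0.00226). The other 5 did not pass in either direction, and Snap25, a synaptic protein, was at background on all 6 arrays. The summed signal of the 7 markers was 1766 to 2094 on the proliferating and 856 to 895 on the differentiated arrays. That fall was the fall of Nefl (mean 1111 to 155) and Nefm (333 to 114), and the median log2 fold change of the 7 was 0.073. Whether these markers bear on the fall of Tubb3 was not tested.

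Tubb6, the class V beta tubulin, was the member with the largest rise. Its bright probe set (1416431_at) had signals of 2906, 3335 and 2774 in proliferating cells and of 4530, 5429 and 4893 in differentiated cells. The lowest differentiated array stood above the highest proliferating one. The mean rose from 3005 ± 293 to 4950 ± 452 (SD, n = 3 each), or 0.72 ± 0.11 (standard error) as a log2 fold change (95% confidence interval 0.49 to 0.95, 1.64-fold, adjusted p = 0.000445). No other member rose by 1.5-fold or more. A second probe set (1446353_at) was above background on 1 proliferating and 3 differentiated arrays and gave a log2 fold change of 0.46 (adjusted p = 0.576).

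Tubb2a and Tubb2b, the class II beta tubulins, lie next to each other on chromosome 13 and rose by like amounts. Tubb2a (1427347_s_at) had signals of 2947, 2356 and 3081 in proliferating cells and of 3850, 3969 and 4033 in differentiated cells. Tubb2b (1452679_at) had 1191, 1416 and 1520 against 2038, 1816 and 2006. The groups did not overlap for either gene. The Tubb2a mean went from 2795 ± 386 to 3950 ± 93.0 (SD, n = 3 each), or 0.51 ± 0.11 (standard error) as a log2 fold change (adjusted p = 0.00719), and the Tubb2b mean from 1376 ± 168 to 1953 ± 120, which was also 0.51 ± 0.11 (standard error) on that scale (adjusted p = 0.00698). A second Tubb2a probe set (1427838_at) was far dimmer, and its log2 fold change of -0.040 had a 95% confidence interval of -0.62 to 0.54, which holds the change of the first. A probe set shared by Tubb2b and the pseudogene Tubb2a-ps2 (1449682_s_at) gave 1015, 1261 and 1132 against 1488, 1285 and 1267, a log2 fold change of 0.24 that did not pass (adjusted p = 0.212). The 2 genes are close in sequence, and the probe set taken for Tubb2a carries the suffix that the maker gives to probes matching several transcripts, so that their rises cannot be taken as separate. The rises of Tubb6, Tubb2a and Tubb2b all missed the threshold when limma was run without a trend of the variance on the mean (adjusted p = 0.0699, 0.177 and 0.173).

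**Figure D1:**
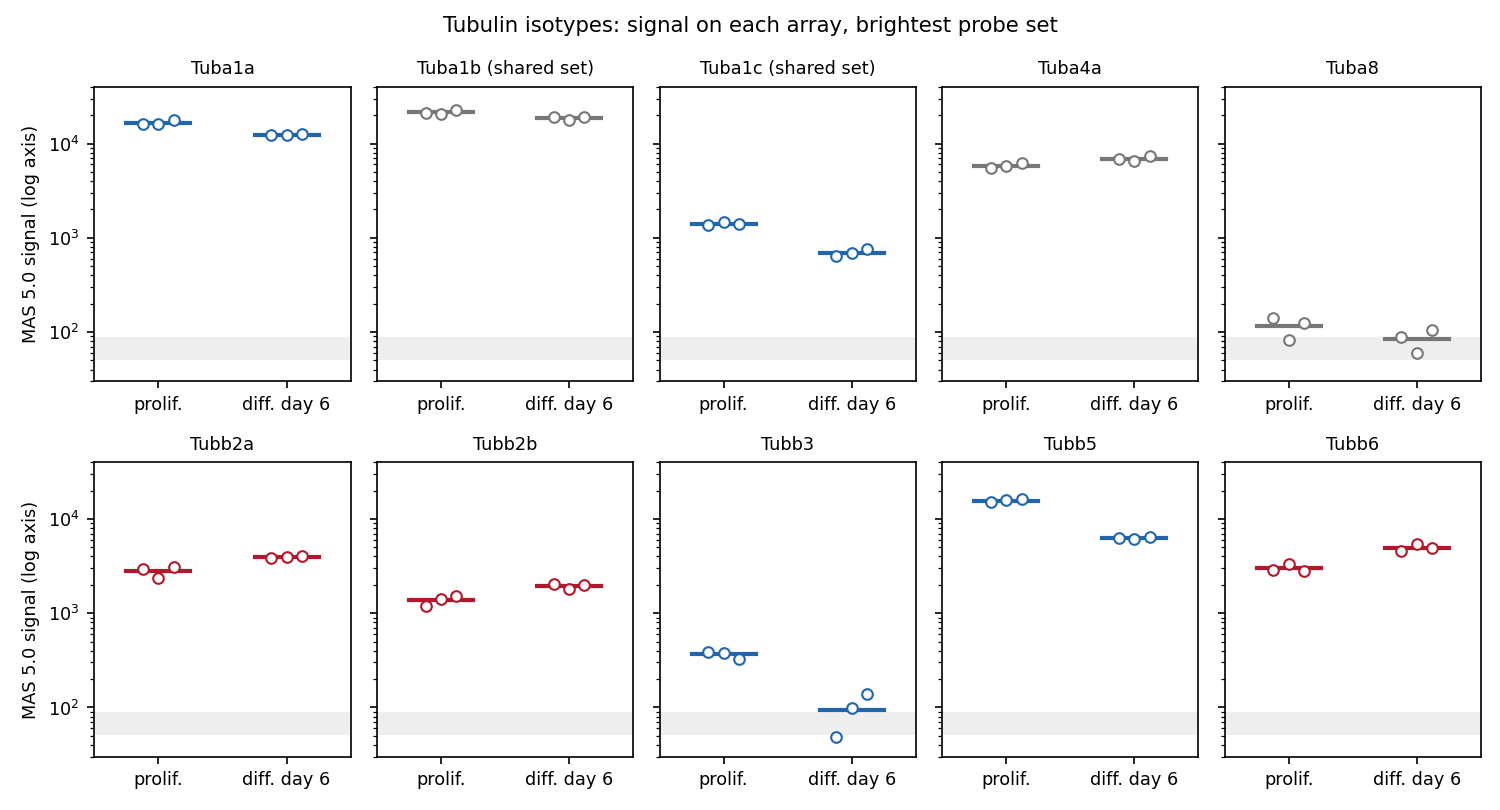
Signals (array software units, log axis) of the brightest probe set of each tubulin isotype (a shared one for Tuba1b and Tuba1c) on 3 proliferating and 3 differentiated arrays, with horizontal bars at the group means and a grey band from 51.9 to 87.0, where the brightest bacterial controls lie. Blue marks genes called lower, red those called higher and grey those that did not pass. Tubb5 went from a mean of 15640 to 6261 and Tubb6 from 3005 to 4950 with no overlap of the groups, while 1 of the 3 Tubb3 points of differentiated cells lies under the band.

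Among alpha tubulins, Tuba1a, the gene for the major isotype of the developing nervous system, fell. Its estimate was smaller than those of the called beta isotypes, a difference that was not tested. Its probe set (1418884_x_at) had signals of 15970, 16020 and 17643 in proliferating cells and of 12178, 12309 and 12676 in differentiated cells, with no overlap. The mean went from 16544 ± 952 to 12388 ± 258 (SD, n = 3 each), or -0.42 ± 0.11 (standard error) as a log2 fold change (1.33-fold, adjusted p = 0.0206). The probe set is annotated to Tuba1a alone, but its suffix is one the maker gives where some probes may match other sequences. Its signal, and the fall, may therefore not be those of Tuba1a alone. The call was lost without proliferating replicate 3 or without differentiated replicate 1 or 2, where the log2 fold change ran from -0.41 to -0.37 (adjusted p = 0.0947 to 0.105). It was lost as well without the variance trend (adjusted p = 0.198) and with quantile normalization (log2 fold change -0.17, adjusted p = 0.37). Tuba1a lies near the top of the scale, and the highest signal of any probe set was 38332 to 40857 on the proliferating and 29490 to 33754 on the differentiated arrays, a difference whose part in the fall was not tested. In proliferating cells the shared Tuba1b probe set (mean 21415) and the brighter Tubb5 one (15640) lie in the same range. With quantile normalization their log2 fold changes were 0.028 and -1.11.

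Tuba4a, the alpha tubulin whose gene encodes no C-terminal tyrosine and which is abundant in adult muscle and nerve, was higher in differentiated cells on 1 of 3 probe sets by the test. That probe set (1417374_at) went from 2031, 2195 and 1971 to 2763, 2762 and 2842. The mean rose from 2066 ± 116 to 2789 ± 46.2 (SD, n = 3 each), or 0.43 ± 0.09 (standard error) as a log2 fold change (1.35-fold, adjusted p = 0.00519, and 0.18 without the variance trend). The brightest probe set (1417373_a_at) gave 5466, 5714 and 6207 against 6864, 6576 and 7317, again with no overlap. Its log2 fold change of 0.26 (95% confidence interval 0.04 to 0.47) did not pass (adjusted p = 0.127), but passed with quantile normalization (0.39, adjusted p = 0.00805), with dim probe sets left out (adjusted p = 0.0477) and with the regularized test (adjusted p = 0.046). The dimmest (1417375_at) had means of 99.6 and 100.7.

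Tuba8, a divergent alpha tubulin with known transcripts in muscle, heart and testis, was close to background. One probe set (1446771_at) had signals of 142.7, 82.7 and 124.4 in proliferating cells and of 87.8, 59.5 and 104.1 in differentiated cells. The groups overlapped, and the log2 fold change was -0.41 ± 0.35 (standard error; 95% confidence interval -1.17 to 0.35, adjusted p = 0.571). The other (1419518_at) was at background on all 6 arrays, with signals of 13.3 to 27.9. These intervals leave room for a change of either direction, so that a difference in Tuba8 was not detectable with these probes.

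Tuba1b and Tuba1c, the widely expressed alpha tubulins that flank Tuba1a on chromosome 15, were measured on probe sets that also match pseudogenes (Gm5620 and Gm6682), and these values are uncertain for that reason. The Tuba1b and the brighter Tuba1c probe set also carry the suffix of the Tuba1a one. Some of their probes may match other sequences, which limits their ratios below as well. The Tuba1b probe set (1423846_x_at) had signals of 21129, 20571 and 22545 in proliferating cells and of 18880, 17751 and 19280 in differentiated cells. Its log2 fold change of -0.20 ± 0.11 (standard error; 95% confidence interval -0.45 to 0.05) did not pass (adjusted p = 0.347). The brighter Tuba1c probe set (1448232_x_at) gave 1375, 1465 and 1409 against 637.5, 682.4 and 762.3, with no overlap. It fell by 1.02 on the log2 scale (standard error 0.10, 2.02-fold, adjusted p = 2.09e-05). The second Tuba1c probe set (1416128_at) gave 407, 473.6 and 311.5 against 236.4, 195 and 399.9, where the groups overlapped (log2 fold change -0.54, adjusted p = 0.198). A probe set shared by Tuba1a and Gm6682 (1433584_at) was above background on 2 proliferating arrays and no differentiated array and did not pass (adjusted p = 0.215). Of the 5 shared probe sets, 1 was called lower (6.43% of all probe sets) and 0 were called higher (6.14% of all probe sets) by limma. At an unadjusted p under 0.05, 3 were lower and 1 was higher, and the regularized test called 1 lower and 0 higher.

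**Figure D2:**
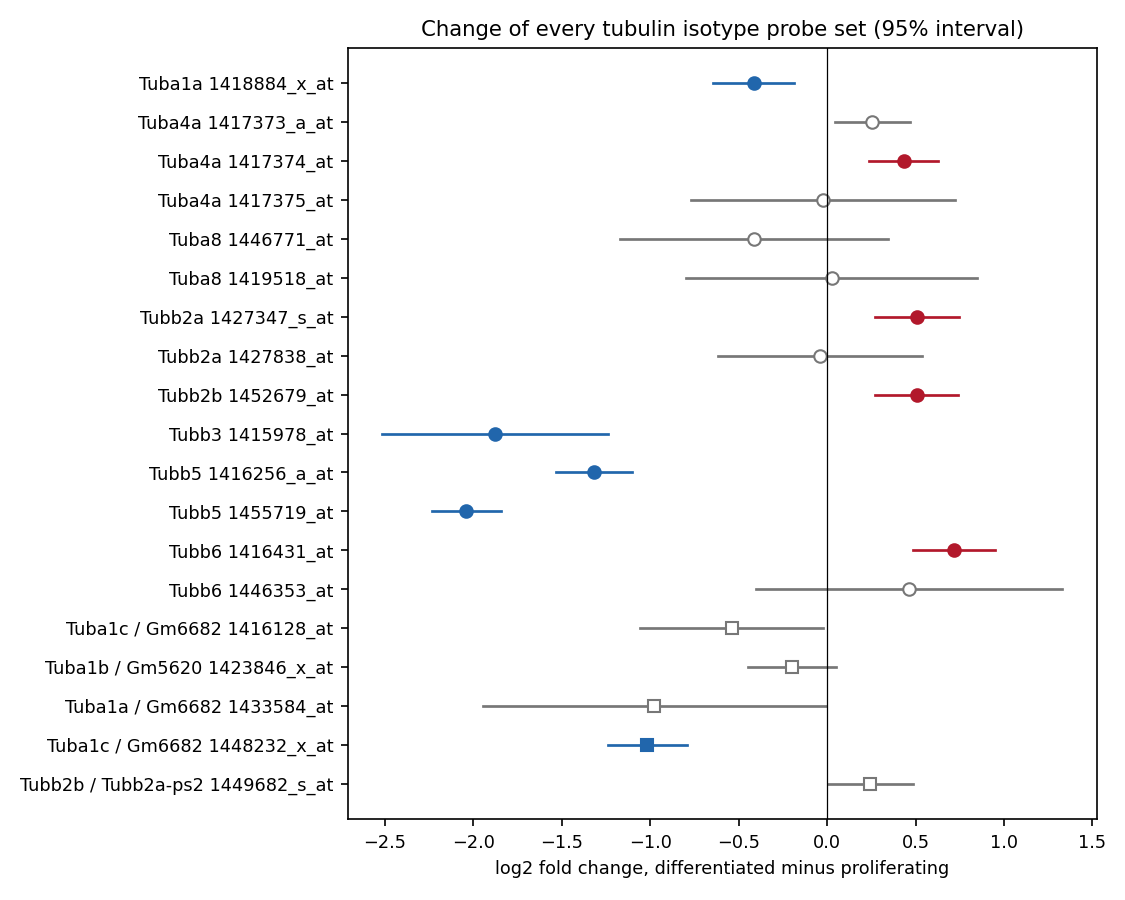
Log2 fold change, differentiated minus proliferating, of all 14 probe sets annotated to 1 tubulin isotype alone (circles) and of the 5 shared with a pseudogene (squares), with 95% confidence intervals from limma and filled symbols where the adjusted p was under 0.05. Both Tubb5 probe sets, Tubb3 and the bright Tuba1c probe set lie at -1.02 or lower, and the called rises lie between 0.43 and 0.72.

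Groups that did not overlap were seen for 5 probe sets higher and 4 lower of the 14, where 27.2% of all probe sets had groups without overlap in either direction. The 5 probe sets that overlapped were the dimmest of Tuba4a, both of Tuba8 and the dimmer ones of Tubb2a and Tubb6. Of the 14 probe sets, 13 were above background on all 3 arrays of at least 1 group.

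Whether the isotypes of a family moved unequally was asked within arrays, as the log2 ratio of the brightest probe set of each isotype to that of a common partner. The ratios depend on the probes, and their changes do as well where probe sets of a gene disagree. Relative to Tubb5, Tubb6 gained 2.04 ± 0.13 on the log2 scale (standard error, n = 3 each), a change of 4.10-fold. Tubb2a and Tubb2b each gained 1.82, with standard errors of 0.12 and 0.08. Every differentiated array had a higher ratio than every proliferating one for these 3 isotypes. With the second Tubb5 probe set (1455719_at) as partner, the gains were 2.76 for Tubb6 (6.75-fold) and 2.54 each for Tubb2a and Tubb2b (5.83-fold), again without overlap. Each of these gains adds the rise of the isotype to the fall of Tubb5 already given. That fall (log2 fold change -1.32 or -2.04 by probe set) is the larger part. The Tubb3 to Tubb5 ratio overlapped between the groups, with a change of -0.56 ± 0.38 (exact permutation test, p = 0.2), and with the second Tubb5 probe set the sign turned, to 0.16 ± 0.42 (exact permutation test, p = 0.7).

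Relative to the shared Tuba1b probe set, Tuba4a gained 0.46 ± 0.04 (1.37-fold), Tuba1a lost 0.22 (change -0.22 ± 0.03) and Tuba1c, also on a shared probe set, had a change of -0.82 ± 0.09. The Tuba8 ratio overlapped, with a change of -0.21 ± 0.25 (exact permutation test, p = 0.4). The groups were without overlap in 6 of the 8 pairs. For single probe sets that share was 27.2% over the whole array, and the share over pairs was not computed. Pairs of a family have the same partner and are not separate observations. Each of the 6 pairs had p = 0.1 in the exact permutation test, 2-sided, which is the smallest p that 3 against 3 arrays allow. Adjusted over the 8 pairs these p-values were 0.133 in the exact permutation test, and none passed the threshold.

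**Figure D3:**
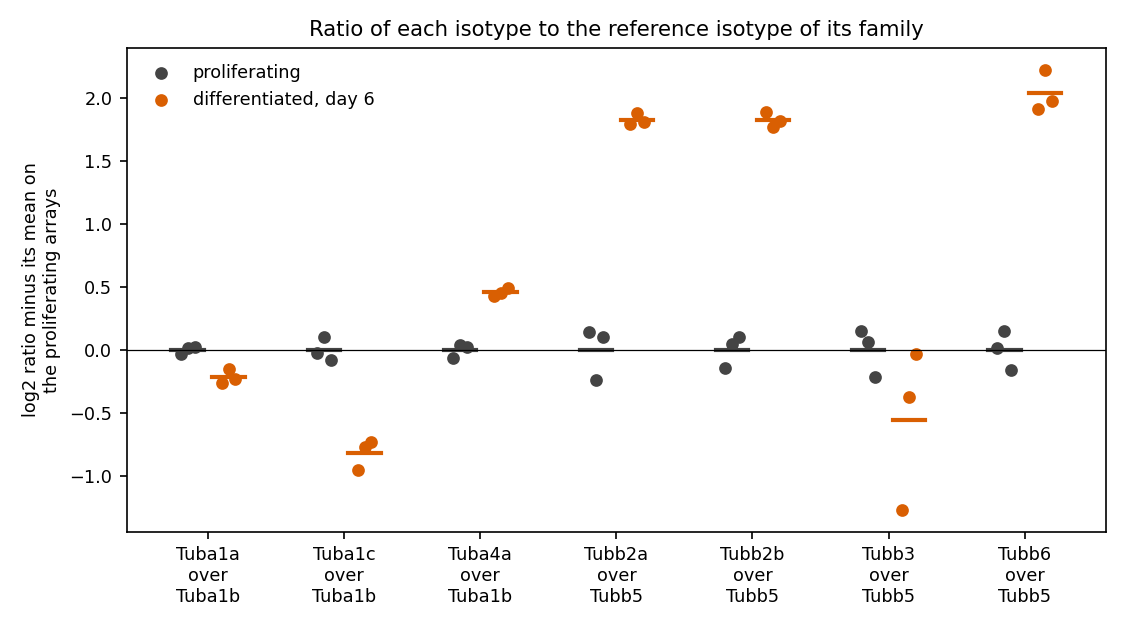
Log2 ratio of the brightest probe set of each isotype to its partner on each array, Tuba1b for alpha and Tubb5 for beta isotypes, minus the mean of the 3 proliferating arrays, with proliferating and differentiated arrays as separate points and Tuba8 left out. Tubb6, Tubb2a and Tubb2b gained 2.04, 1.82 and 1.82 relative to Tubb5, and the Tubb3 points of the groups overlap.

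The other tubulin genes of the cell were described from a list of 10, of which 8 had a probe set of their own. Of these, 3 were called lower, 0 were called higher by limma (0 as well at an unadjusted p under 0.05 and with the regularized test) and 5 did not pass, with a median log2 fold change of -0.38. Over all genes 9.00% were called lower and 8.63% higher, around a median of 0.057. Tubb4b, the class IVb beta tubulin found in most tissues, went from 4296 ± 387 to 1740 ± 97.1 (SD, n = 3 each), or -1.29 as a log2 fold change (adjusted p = 1.55e-06) on its brightest probe set, with 2 of 6 called, close in size to that of the brighter Tubb5 probe set. Tubg1, the gamma tubulin that nucleates microtubules at centrosomes, had a log2 fold change of -1.33 (adjusted p = 2.02e-05). The probe set of Tuba3b alone (1438611_at) was above background on 2 of 3 proliferating arrays and on no differentiated array, and was at least 1.14-fold lower (adjusted p = 0.0214). That call was lost without proliferating replicate 2 or without differentiated replicate 1 or 2 (adjusted p = 0.0546 to 0.0932). Another 2 probe sets, shared by Tuba3b and Tuba3a, were above background on all 6 arrays and did not pass, with log2 fold changes of -0.20 (adjusted p = 0.281) and 0.075 (adjusted p = 0.907). Log2 fold changes of -0.41 for Tubb4a, -0.35 for Tubb1, -0.17 for Tube1 and 0.42 for Tubd1 did not pass, and Tubg2 was at background on all 6 arrays.

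Tubulin has to be folded before it can polymerise, by prefoldin, the chaperonin TRiC and the tubulin cofactors. Of 21 genes of these groups or related to them, 9 were called lower (9.00% of all genes) and 2 higher (8.63% of all genes), with a median log2 fold change of -0.31. The count called higher is near the share over all genes. The falls included Cct3 and Cct6a, subunits of TRiC, with log2 fold changes of -0.71 (adjusted p = 0.000309, 4 of 7 probe sets called) and -0.64 (adjusted p = 0.000392). The rises were those of Tbcel, related to cofactor E, at 0.62 (adjusted p = 0.00934) and of Arl2, a small GTPase that works with cofactor D, at 0.58 (adjusted p = 0.026), the latter with 1 of 2 probe sets called. The Arl2 call was lost without any one of proliferating replicates 1 and 3 and differentiated replicates 1 and 3 (adjusted p = 0.1 to 0.121), and with each array scaled to the same 75th percentile. Without the variance trend, limma called 0 of the 21 genes in either direction, against 7 lower and 2 higher at an unadjusted p under 0.05, while the regularized test called 9 lower and 2 higher.

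Enzymes and partners that modify tubulin were counted next, beside 8.63% of all genes called higher and 9.00% called lower. Of 16 measured genes, 5 were called higher and 0 lower by limma (0 lower with the regularized test, and 1 lower at an unadjusted p under 0.05, with dim probe sets left out, with a pseudocount of 49.6, with arrays scaled to the same 75th percentile or without proliferating replicate 2), around a median log2 fold change of 0.0022. Atat1, which acetylates alpha tubulin, was higher by 1.13 (adjusted p = 0.0161) on its brightest probe set, the only one of 4 that was called. Vash2, which removes the C-terminal tyrosine of alpha tubulin, and its partner Svbp were higher by 0.74 (adjusted p = 0.000551) and 0.83 (adjusted p = 0.00144). Ttll7, which adds glutamates to beta tubulin, was higher by 0.70 (adjusted p = 0.0293), with 1 of 2 probe sets called. The Atat1 call was lost without proliferating or differentiated replicate 2 (adjusted p = 0.0538 to 0.109), and the Ttll7 call without any one array but proliferating replicate 3 (adjusted p = 0.0605 to 0.123). Without the variance trend limma called 0 of the 16, against 4 higher at an unadjusted p under 0.05.

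Of 15 stabilisers, proteins that bind the polymer, 4 were called higher (8.63% of all genes) and 1 lower (9.00% of all genes), with a median of 0.34. Dclk1, a doublecortin family kinase that binds microtubules, went from 256 ± 36.5 to 4680 ± 401 (SD, n = 3 each), or 4.12 as a log2 fold change (adjusted p = 4.42e-10), with 7 of its 9 probe sets called higher. Jakmip1 was called higher (adjusted p = 0.0143) on 1 of 4 probe sets, with signals of 16.8, 5.6 and 56.0 in proliferating cells, where 1 array was barely above background, against 86.4, 191.1 and 224.1, so that no exact fold is given. Mtus1 was higher by 0.82 (adjusted p = 0.0314), with all 3 of its probe sets called, and Map6, which stabilises microtubules against cold, was lower with -0.83 (adjusted p = 0.0427) on 1 of 2 probe sets called. All 3 calls were lost without differentiated replicate 2 or 3, that of Map6 also without proliferating replicate 2 or 3, and that of Mtus1 also without those and differentiated replicate 1. The adjusted p then ran from 0.0738 to 0.0806 for Jakmip1, from 0.116 to 0.154 for Map6 and from 0.0544 to 0.113 for Mtus1.

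Of 12 plus-end proteins, 3 were called higher (8.63% of all genes) and 3 lower (9.00% of all genes), with a median of 0.43. The regularized test called 5 higher and 3 lower, and leaving out dim probe sets gave 6 higher and 3 lower. Mapre3 (EB3), a tip-binding protein of muscle and neurons, rose from 296 ± 27.3 to 906 ± 92.6 (log2 fold change 1.57, adjusted p = 3.7e-06), and the spectraplakin Macf1 was higher by 0.74 (adjusted p = 0.00126). Ckap5, a microtubule polymerase that also acts at spindles, had a log2 fold change of -0.98 (adjusted p = 0.000107) with 1 of 3 probe sets called, and Mapre2 (EB2) of -0.61 (adjusted p = 0.0382) with 1 of 5 called. The Mapre2 call was kept without differentiated replicate 2 and lost without any one of the other 5 arrays (adjusted p = 0.0575 to 0.159).

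Of 10 measured destabilisers, 4 were called lower and 0 higher by limma (0 as well at an unadjusted p under 0.05 and with the regularized test), with a median of -0.67. The shares over all genes were 9.00% lower and 8.63% higher. Stmn1 (stathmin), which sequesters tubulin dimers, fell from 5324 ± 588 to 628 ± 87.2 (SD, n = 3 each), or -3.06 as a log2 fold change (adjusted p = 4.16e-09) on 1 of 2 probe sets. The depolymerising kinesins Kif2c and Kif2a had log2 fold changes of -1.47 (adjusted p = 7.74e-05) and -0.85 (adjusted p = 0.00088). Stmn2, a stathmin of neurons, had -1.19 (adjusted p = 0.0215), a call lost without differentiated replicate 1 or any one proliferating array (adjusted p = 0.0615 to 0.0774).

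**Figure D4:**
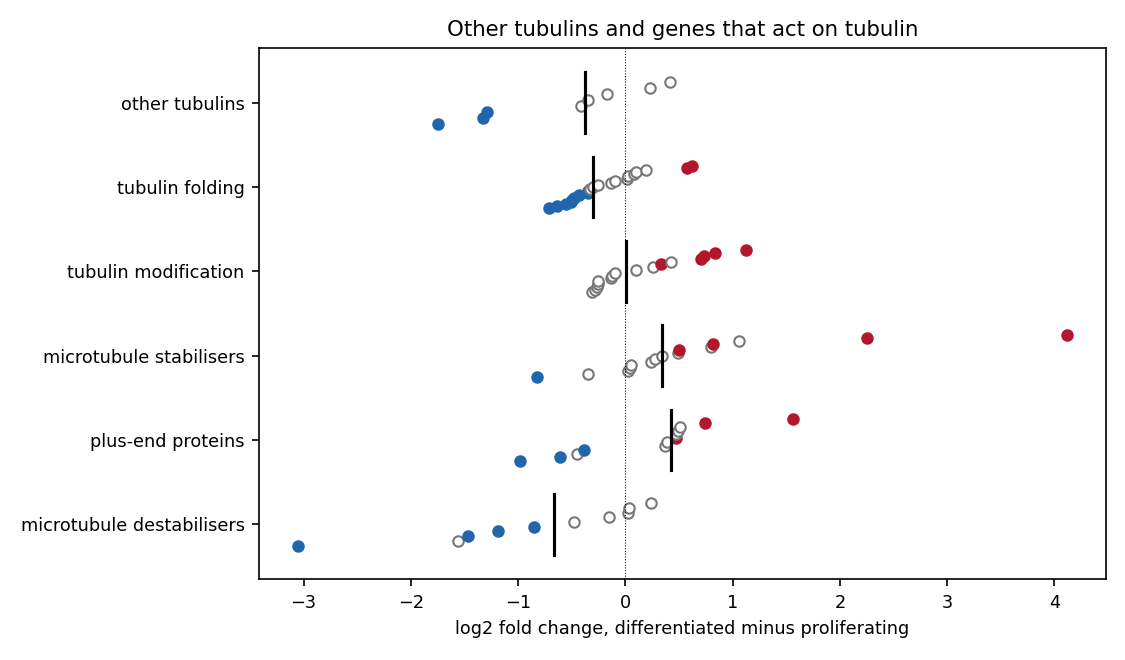
Log2 fold change, differentiated minus proliferating, of each measured gene by its brightest probe set in 6 lists of tubulin and microtubule genes, with colour for genes whose adjusted p was under 0.05 and a black bar at the median of each list. Medians ran from -0.67 for destabilisers to 0.43 for plus-end proteins, and Dclk1 (4.12) and Stmn1 (-3.06) lie farthest out. The proliferating signals of Jakmip1 and the differentiated signals of Tuba3b were at or near background, so that their points have no exact size.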

How the data were processed

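What the authors deposited are intensity values, linear signals of Affymetrix Microarray Suite 5.0 that were scaled per array to a trimmed mean of about 250. The study went on with GCRMA and a Bayesian regularized test. GCRMA starts from single probes, not used here, so limma on the deposited signals stood in, and the regularized test was run on the same signals as an alternative. After 64 controls were removed from 45101 probe sets, log2(signal + 15) of the other 45037 was given to limma 3.58.1 (R 4.3.3, lmFit, eBayes with a variance trend). Changes are differentiated minus proliferating, tests are 2-sided, and p-values were adjusted by Benjamini-Hochberg over all probe sets, with 0.05 as the threshold. All adjusted p-values of single genes are from limma unless another test is named. Arrays were not normalized further.

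Genes were named by the platform annotation (34945 probe sets with 1 symbol, 932 with several, 9160 with none) and represented by their brightest probe set. Members and lists were chosen with earlier results of these data known. Named are all members and other tubulins, the markers, and up to 4 passing genes of each other list with the largest change. The background limit was chosen after the values were seen. Ratios were compared by exact permutation over arrays (scipy 1.17.1). The fits were checked on simulated data. With so few arrays, precision is limited throughout. Alternatives were run for normalization, pseudocount, dim probe sets, variance model, test, replicate block, thresholds, the probe set taken and each array left out.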

Additional observations from a re-analysis of the deposited data

How the results depend on the processing

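The number of member genes and probe sets called lower stayed within 1.5 times under all alternatives tried, while the counts called higher did not. Without the variance trend limma called 0 member probe sets and 0 member genes higher, against 4 and 3 at an unadjusted p under 0.05, and the regularized test called 5 and 4 higher. With a limit of 1.5-fold added, 1 probe set and 1 gene (Tubb6) remained higher, and the mean over passing probe sets at 1.5-fold also gave 1. With single arrays left out, 3 to 4 probe sets and 2 to 3 genes were called lower, where Tuba1a was the gene lost, and all 3 genes stayed higher. Over all probe sets 5659 were called, against 2669 without the trend. The cause was not tested.

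Signs turned only for changes that had not passed. The shared Tuba1b probe set had a log2 fold change of 0.028 with quantile normalization, and the dim Tuba8 probe set (1419518_at) had -0.068 with it and -0.0024 with scaling to the same 75th percentile. With single arrays left out, the dim probe sets ranged from -0.26 to 0.17 for Tuba4a (1417375_at), from -0.11 to 0.19 for Tuba8 and from -0.17 to 0.10 for Tubb2a (1427838_at), and Tubd1 from -0.17 to 0.81. Alternatives for isotype ratios, gene lists and genes outside the group were chosen after seeing the data. With the second Tubb5 probe set as partner, the change of the Tubb3 to Tubb5 ratio turned to 0.16. No other ratio turned its sign, and that of Tubb6 to Tubb5 ran from 1.95 to 2.11 with single arrays left out. Calls at 1.5-fold or more left 2 lower and 1 higher for folding. Dim probe sets left out, or an unadjusted p, gave 6 higher for plus-end proteins. Without the trend, counts were 2 higher and 0 lower for stabilisers, 1 and 1 for plus-end proteins and 2 lower for destabilisers. With single arrays left out, the called genes numbered 6 to 9 lower for folding, 2 to 4 higher for modification, 2 to 5 higher for stabilisers, 2 to 4 higher and 1 to 3 lower for plus-end proteins, 3 to 4 lower for destabilisers and 2 to 3 lower for the other tubulins.

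Same-numbered arrays of the groups correlated in their deviations by 0.0433, 0.0182 and 0.0215, and differently numbered ones by -0.0255 to 0.00391. The same-numbered values were thus the higher ones. All were small and the study's methods name no pairing, so the numbers were not taken to pair the samples. With the replicate block, 4 member probe sets were higher and 4 lower, and 5287 probe sets were called in all. Signals near the bacterial controls limit Tuba8 and the dim probe sets of Tuba4a, Tubb2a and Tubb6.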
